A study of Mus musculus with 11 samples.

Results

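Annexin A1 (gene Anxa1) and formyl peptide receptor 1 (gene Fpr1) were followed across treatment and genotype in peritoneal macrophages, as the rows of those names in a Nanostring expression table. They are 2 of the 754 genes in the table. The cells came from 11 female mice of strain C57BI/6 as the labels spell it, aged 6 to 8 weeks, and each mouse is 1 sample. PBS or IL-4c, a complex of IL-4 with an anti-IL-4 antibody, was injected intraperitoneally on day 0 and day 2, and CD11b+F4/80+ cells were sorted on day 4. The wild-type genotype is Rα+/+, and in RαTd/Td mice a TdTomato reporter takes the place of most of Retnla, which encodes RELMα, in the germline, so that no cell type keeps the gene. The groups were PBS-treated Rα+/+ (mice 1 and 2), PBS-treated RαTd/Td (mice 3 and 4), IL-4c-treated Rα+/+ (mice 5, 6 and 7) and IL-4c-treated RαTd/Td (mice 9, 10, 11 and 12).

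Annexin A1 is a protein that binds calcium and phospholipids, is induced by glucocorticoids, and is released by myeloid cells. Outside the cell it acts on formyl peptide receptors, limits neutrophil recruitment and favours the clearance of apoptotic cells, for which it is known as a mediator of the resolution of inflammation. The formyl peptide receptors are G protein-coupled receptors of neutrophils and macrophages: Fpr1 binds formylated peptides of bacteria and mitochondria with high affinity, and Fpr2 binds a wider set of ligands that includes annexin A1. IL-4 drives the alternative activation of macrophages, of which RELMα is a hallmark product.

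Gene values here are a linear signal: counts scaled by the authors to 4 housekeeping genes, where anything low was set to a floor of 30. The smallest value that could be told from the floor lay between 30.5 and 56.3 normalised counts, depending on the mouse, and the depth was 268858 to 574505 counts per mouse. Retnla was at the floor in all 6 RαTd/Td mice and at 4141 or more in all 5 Rα+/+ mice. The macrophage markers Adgre1, Itgam, Csf1r and Cd68 were above the floor in every mouse. Mouse 12 stood apart from its group: it had the highest value of the 11 mice in 72 of the 445 genes tested, against 11 to 26 genes for each of the 3 other IL-4c-treated RαTd/Td mice, and results that rest on it are given with and without it.

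The upstream sequences of the genes are shown to place the transcripts that were counted and to record which letters of known binding motifs lie there. They are the 250 bases before the RefSeq start of each gene in GRCm38.p6, written 5′ to 3′ on the gene's own strand. Anxa1 lies on the minus strand of chromosome 19 (chr19:20390672-20390921), Fpr1 on the minus strand of chromosome 17 (chr17:17883940-17884189) and Fpr2 on the plus strand beside it (chr17:17887574-17887823), and capitals mark the motifs that were found.
Anxa1: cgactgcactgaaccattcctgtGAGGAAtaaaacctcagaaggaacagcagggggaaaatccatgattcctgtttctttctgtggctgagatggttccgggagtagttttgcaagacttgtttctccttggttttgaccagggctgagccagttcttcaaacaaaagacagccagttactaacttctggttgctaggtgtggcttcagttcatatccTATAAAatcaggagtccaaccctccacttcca
Fpr1: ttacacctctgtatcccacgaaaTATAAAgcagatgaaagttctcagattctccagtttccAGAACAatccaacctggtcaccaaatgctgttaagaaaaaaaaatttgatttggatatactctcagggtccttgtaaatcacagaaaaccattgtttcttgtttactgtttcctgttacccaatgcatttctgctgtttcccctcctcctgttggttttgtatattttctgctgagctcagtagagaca
Fpr2: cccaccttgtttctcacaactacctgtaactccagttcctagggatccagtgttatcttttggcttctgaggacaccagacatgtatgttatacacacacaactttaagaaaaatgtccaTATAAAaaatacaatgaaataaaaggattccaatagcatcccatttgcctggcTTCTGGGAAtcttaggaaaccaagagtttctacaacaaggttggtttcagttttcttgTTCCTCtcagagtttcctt
The motifs were searched on both strands, and positions are those of the first letter counted back from the start of the transcript. The letters TTCNNNNGAA, the spacing that STAT6 prefers, were in none of the 3 windows and in 5.85% of the 32851 RefSeq windows of this length. TTCNNNGAA, the spacing of other STAT proteins, was in the Fpr2 window at -77 and in 7.02% of all windows. The core GAGGAA of PU.1, the master regulator of the macrophage lineage, was at -227 in Anxa1 and on the other strand at -19 in Fpr2, and in 23.3% of all windows. TATAAA was at -32 in Anxa1, at -227 in Fpr1 and at -130 in Fpr2, and in 12.4% of all windows. The letters TGTTCT, a part of the glucocorticoid response element, were in the Fpr1 window on the other strand at -189 and in 16.1% of all windows. TGANTCA, an AP-1 site, was in none of the 3 and in 6.75% of all windows. These matches describe letters and are not binding sites shown to be used.

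Anxa1 was well above the floor in every mouse. It was 500 and 514 normalised counts in the PBS-treated Rα+/+ mice and 426 and 419 in the PBS-treated RαTd/Td mice. After IL-4c it was 461, 443 and 399 in the Rα+/+ mice and 586, 528, 605 and 866 in the RαTd/Td mice. The 4 IL-4c-treated RαTd/Td mice were therefore the 4 highest of all 11, and mouse 12 was the highest of them. The group means were 646 ± 150 (SD, n = 4) in IL-4c-treated RαTd/Td, 507 ± 10.2 (n = 2) in PBS-treated Rα+/+, 434 ± 32.0 (n = 3) in IL-4c-treated Rα+/+ and 422 ± 5.15 (n = 2) in PBS-treated RαTd/Td mice. In this order, the last 2 groups overlapped and the others did not overlap with their neighbours. The order was taken from these same values in groups of 2 to 4 mice. How many other genes separate likewise was not counted, so the separation is not shown to be particular to Anxa1. Counting error was smaller than these steps only in part: in mouse 12 the 95% Poisson interval of 806 to 930 lay above the intervals of all other mice, while those of mouse 1 (446 to 559) and mouse 3 (373 to 485) overlapped. These intervals cover counting error only.

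**Figure D1:**
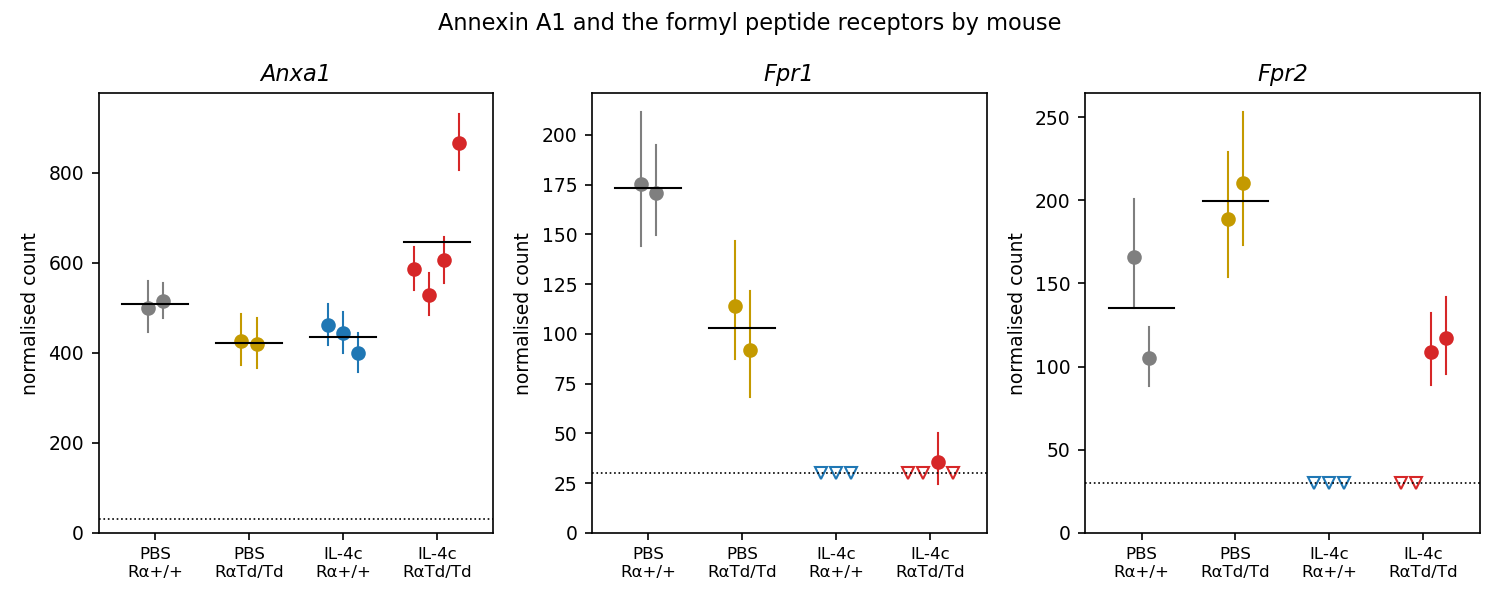
Normalised counts of Anxa1, Fpr1 and Fpr2 (vertical axes, each from 0) in every mouse of the 4 groups. Filled points are measured values with 95% Poisson intervals, open triangles are mice at the floor of 30 (dotted line), and black lines are group means where no mouse was at the floor; Fpr1 was at the floor in 6 of the 7 IL-4c-treated mice.

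IL-4c went with more Anxa1 in RαTd/Td mice. The rise was 0.59 on the log2 scale (SE 0.18, adjusted p = 0.0199 from limma), which is 1.5-fold with a 95% interval of 1.14 to 1.98. In this comparison 51.9% of the 445 genes tested were called at an adjusted p of 0.05 or less, 15.3% higher and 36.6% lower after IL-4c. Without mouse 12 the rise was 0.44 (adjusted p = 0.00436 from limma), and it was 0.92 both with centring on the median gene and after quantile normalization. Only 2 mice make up each PBS-treated group, and the call was lost without mouse 3 (0.60, adjusted p = 0.0832) and without mouse 4 (0.57, adjusted p = 0.1003).

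In Rα+/+ mice the corresponding difference in Anxa1 was -0.23 (SE 0.19, adjusted p = 0.364 from limma), a fold of 0.855 with a 95% interval of 0.639 to 1.14. All 3 IL-4c-treated values were below both PBS-treated values, but the sign depended on the scaling: it was 0.059 when each mouse was centred on its median gene and 0.042 after quantile normalization. In this comparison 46.3% of the genes tested were called, 13.9% higher and 32.4% lower. The difference between the genotypes in the Anxa1 response was 0.81 (SE 0.26, adjusted p = 0.145 from limma), and 2.02% of the genes were called for such a difference. It passed the threshold without mouse 12, at 0.66 (SE 0.12, adjusted p = 0.0401).

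The comparison of genotypes within a treatment shares its mice with those above. After PBS, Anxa1 differed by -0.26 between RαTd/Td and Rα+/+ mice (SE 0.20, adjusted p = 0.492 from limma), with a 95% interval of -0.72 to 0.20, in a comparison that called 9.66% of the genes. The difference was -0.59 when each mouse was centred on its median gene (adjusted p = 0.0942) and -0.55 after quantile normalization (adjusted p = 0.116). After IL-4c it was 0.55 higher in RαTd/Td mice (SE 0.16, adjusted p = 0.102 from limma), a fold of 1.46 with a 95% interval of 1.15 to 1.86, and this did not pass the threshold. That comparison called 2.7% of the genes. The 4 RαTd/Td values all lay above the 3 Rα+/+ values, for which the exact two-sided permutation test gave p = 0.0571, the smallest that its 35 arrangements allow, and 0.32 after Benjamini-Hochberg adjustment over 8 such tests. Without mouse 12 the difference was 0.40 (adjusted p = 0.0816 from limma), and it was 0.27 when each mouse was centred on its median gene.

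Fpr1 fell after IL-4c in both genotypes. It was 175 and 171 normalised counts in the PBS-treated Rα+/+ mice and 114 and 92.0 in the PBS-treated RαTd/Td mice. After IL-4c it was at the floor of 30 in all 3 Rα+/+ mice and in 3 of the 4 RαTd/Td mice, and mouse 11 had 35.6, from 33 counts with a 95% Poisson interval of 24.5 to 49.95 normalised counts. All 4 PBS-treated mice were thus far above all 7 IL-4c-treated mice. How many other genes separate the treatments likewise was not counted, so this separation is not shown to be particular to Fpr1.

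Against the lowest values that could be measured, Fpr1 was at least 4.92-fold lower after IL-4c in Rα+/+ mice and at least 3.12-fold lower in RαTd/Td mice. The second limit starts from a lower level in the PBS-treated mice, and neither limit says how far below the floor the transcript went. The fitted log2 differences, which depend on the floor, were -2.49 (SE 0.12, adjusted p = 3.04e-07 from limma) and -1.68 (SE 0.12, adjusted p = 3.53e-06). Mice at the floor cannot vary, so these SEs and p-values may be too small. Both falls kept their direction and their call under every alternative in which Fpr1 was tested. In bulk samples of sorted cells, fewer cells that express a gene and less of its RNA per cell cannot be told apart.

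In PBS-treated mice Fpr1 was lower in RαTd/Td than in Rα+/+ macrophages, at 103 ± 15.5 (SD, n = 2) against 173 ± 3.03 (n = 2). The difference was -0.75 on the log2 scale (SE 0.14, adjusted p = 0.0101 from limma), a fold of 0.594 with a 95% interval of 0.481 to 0.733. The spread behind this SE is shared with the IL-4c-treated groups, where mice at the floor cannot vary. The interval and the p-value may therefore be too small. The Poisson intervals of mouse 3 (87.2 to 146) and mouse 1 (144 to 211) met at their ends, those of mouse 4 (68.1 to 122) and mouse 2 (150 to 195) did not. Without mouse 4 the difference was -0.60 and no longer called (adjusted p = 0.0892), and with only these 2 groups in the fit the adjusted p was 0.169. After IL-4c the fitted difference between genotypes was 0.06 (SE 0.10, adjusted p = 0.763), which compares floors and gives no information on levels below them.

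The difference between genotypes in the Fpr1 response was 0.81 (SE 0.17, adjusted p = 0.0440 from limma). Since both IL-4c-treated groups were at or near the floor, this value restates the difference in the PBS-treated mice and is not a measured difference in the size of the fall. The call was lost when any of mice 2, 4, 5, 6, 7, 9 or 10 was left out, with a lowest value of 0.66. The SE of this difference also draws on mice at the floor, so its p-value may be too small.

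**Figure D2:**
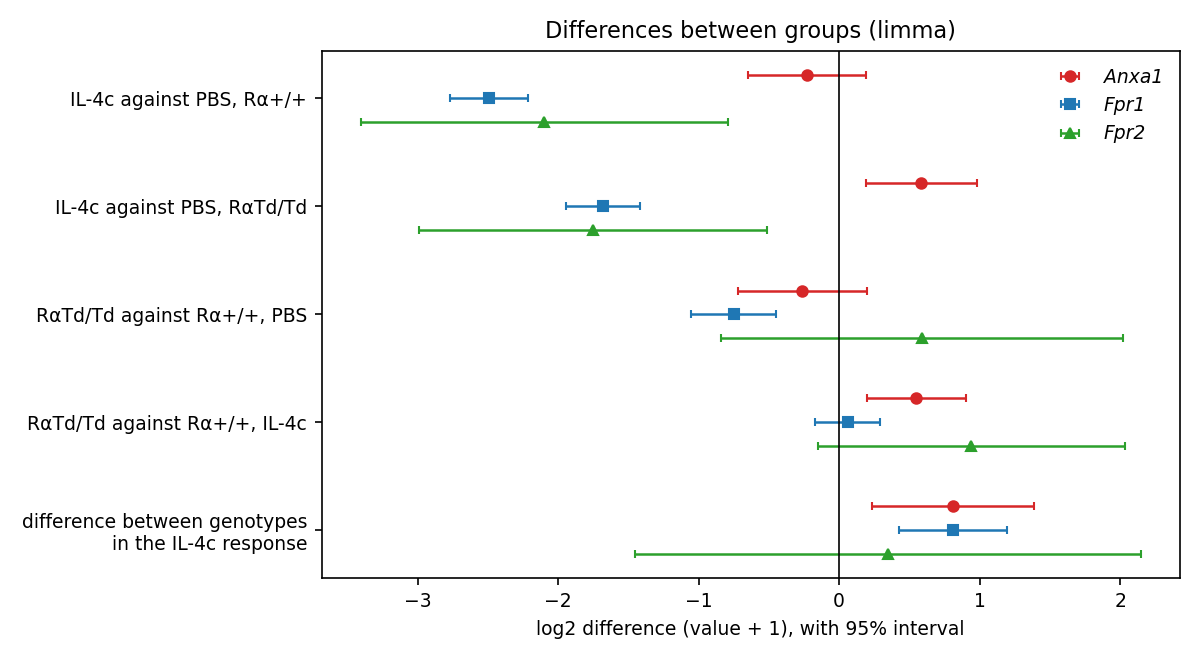
Log2 differences (horizontal axis, values plus 1) of Anxa1, Fpr1 and Fpr2 in the 5 comparisons, with 95% intervals from limma. Fpr1 and Fpr2 lie to the left of 0 for IL-4c in both genotypes, and Anxa1 lies to the right of 0 in RαTd/Td mice at 0.59; for Fpr1 and Fpr2 the values against IL-4c-treated groups depend on the floor.

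The table holds 7 formyl peptide receptor genes, and Fpr1, Fpr2, Fpr3 and Fpr-rs4 follow each other on chromosome 17 in the RefSeq gene order. Fpr3, Fpr-rs3, Fpr-rs4, Fpr-rs5 and Fpr-rs6 were at the floor in all 11 mice, the Fpr-rs genes having been added after their values were seen. Fpr2, the receptor through which annexin A1 is best known to act, was 166 and 105 normalised counts in the PBS-treated Rα+/+ mice and 189 and 210 in the PBS-treated RαTd/Td mice. After IL-4c it was at the floor in all 3 Rα+/+ mice. In the RαTd/Td mice it was at the floor in mice 9 and 10 but 109 in mouse 11 and 117 in mouse 12, values that overlap with the PBS-treated Rα+/+ range.

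As a ratio of group geometric means, Fpr2 was at least 3.75-fold lower after IL-4c in Rα+/+ mice and at least 3.38-fold lower in RαTd/Td mice. The second ratio averages 2 mice at the floor with mouse 11 at 109 and mouse 12 at 117. It does not hold for those 2 measured mice, against 189 and 210 after PBS. The fitted falls were -2.10 (SE 0.58, adjusted p = 0.0144 from limma) and -1.75 (SE 0.55, adjusted p = 0.0231). The calls depended on single mice and on settings: the first was not called without mouse 1 (-1.77, adjusted p = 0.139), and the second was not called without mouse 3 (-1.83, adjusted p = 0.0907), mouse 4 (-1.68, adjusted p = 0.118) or mouse 10 (-1.44, adjusted p = 0.0599). Neither was called with no filter, and the second was not called after quantile normalization (-1.49, adjusted p = 0.0605) or with only the groups compared (adjusted p = 0.115). With 1 floor for all mice the falls were -1.21 and -1.31 (adjusted p = 0.0155 and 0.00783 from limma). The genotypes differed in Fpr2 by 0.59 after PBS, with a 95% interval of -0.84 to 2.02, and by 0.94 after IL-4c, with an interval of -0.15 to 2.03 (adjusted p = 0.656 and 0.279 from limma). The interval after PBS does not settle whether Fpr2 differed in the direction of Fpr1 or against it.

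Anxa1 has relatives in the panel. Of 16 annexins and S100 partners listed, Anxa1, Anxa4, S100a4, S100a10 and S100a11 were in the table and all were tested. After IL-4c in RαTd/Td mice all 5 were called higher, as were 15.3% of all genes tested. Their median log2 difference was 0.77 against -0.23 over all genes tested. In Rα+/+ mice 13.9% of all genes tested were called higher and 32.4% lower. None of the 5 was called there, with a median of 0.22 against -0.18 over all genes tested. This depended on the scaling: Anxa4 and S100a10 were called higher in Rα+/+ mice when each mouse was centred on its median gene (0.67 and 0.78) and after quantile normalization (0.71 and 0.73), and Anxa4 also with only the groups compared. For none of the 5 was a difference between genotypes called, after PBS, after IL-4c or in the response, so that the response in RαTd/Td mice is not shown to differ from that in Rα+/+ mice.

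S100a10, the light chain of the annexin A2 complex, was 1958 and 2011 normalised counts in the PBS-treated RαTd/Td mice, and IL-4c-treated mice of that genotype had 3231, 3213, 3166 and 5015. Its rise was 0.85 (SE 0.20, adjusted p = 0.00508 from limma), and it was the single gene of the 5 that stayed called under every alternative other than the methods' t-test after adjustment. In Rα+/+ mice S100a10 was 2084 and 2529 after PBS and 3579, 3275 and 2915 after IL-4c, a difference of 0.50 (adjusted p = 0.0733). S100a4, a regulator of cell motility, was 990 and 838 in the PBS-treated RαTd/Td mice and 1418, 1744, 2584 and 4511 after IL-4c, a rise of 1.35 (SE 0.42, adjusted p = 0.0223). The PBS-treated RαTd/Td mice were the lowest of all groups in S100a4, while PBS-treated Rα+/+ mice had 1643 and 2079, a difference of -1.02 that was not called (adjusted p = 0.252).

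S100a11, which binds annexin A1, rose by 0.77 (SE 0.29, adjusted p = 0.0496), and the call was lost when any of 9 of the 11 mice was left out. Anxa4 rose by 0.51 (SE 0.17, adjusted p = 0.0299), and its call was lost without mouse 3, 4, 10 or 12. Without mouse 12 the count of the 5 genes called was 3 (Anxa1, S100a4 and S100a10), and without mouse 3 or mouse 4 it was 1 (S100a10). With only the RαTd/Td groups in the fit it was also 1. The methods' t-test called none of the 5 after adjustment and 1 before it.

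**Figure D3:**
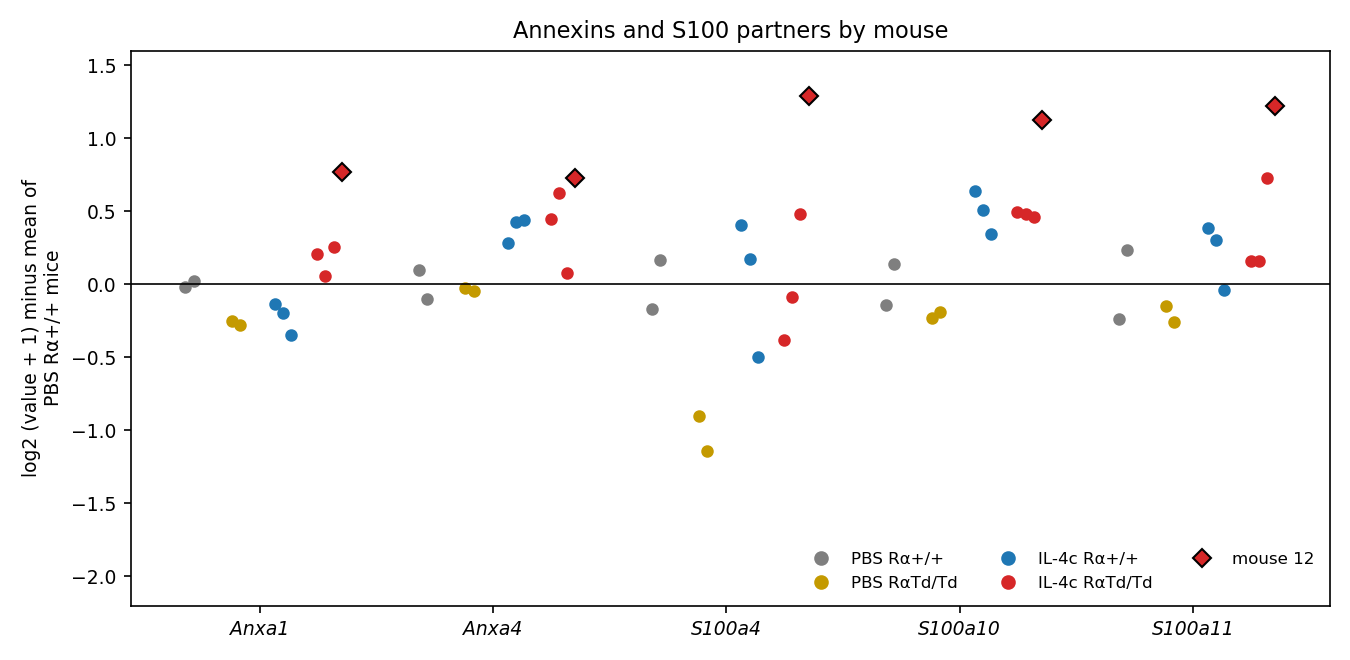
Log2 values of Anxa1, Anxa4, S100a4, S100a10 and S100a11 in each mouse, minus the mean of the PBS-treated Rα+/+ mice (vertical axis). Diamonds mark mouse 12, which is the highest mouse for all 5 genes, with an Anxa1 of 866 normalised counts.

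Mouse 12 was also high in genes of other functions, and their part in the Anxa1 values was not tested. Among the chemoattractant receptors C5ar1 was 1003 normalised counts there against 375 to 512 in the other mice of its group, Ccr2 was 464 against 61.9 to 139, and Ltb4r1 was 107 against 32.4 to 46.4. Cd163, the haemoglobin scavenger receptor, was 718 against 52.8 to 251. Col1a2 at 52.8 and Col3a1 at 68.9, which encode fibrillar collagens, and the B cell gene Ms4a1 at 63.1 were above the floor in mouse 12 and in no other IL-4c-treated mouse. Alox15, the lipoxygenase of resident peritoneal macrophages, was lowest there at 3121 against 6223 to 7434.

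Receptors for other chemoattractants were read beside the formyl peptide receptors. Of 15 reported here, 13 were in the table and 9 were tested, and Fpr3, Ltb4r2, Cxcr2 and Cx3cr1 were at the floor in every mouse. Of all genes tested, 32.4% were called lower after IL-4c and 13.9% higher in Rα+/+ mice. The shares were 36.6% and 15.3% in RαTd/Td mice. In Rα+/+ mice Fpr1, Fpr2, C5ar1, C3ar1 and Ccr1 fell after IL-4c and Cxcr4 rose. In RαTd/Td mice Fpr1, Fpr2, C3ar1, Ccr1 and Cxcr4 fell, and Ptafr and Ltb4r1 had positive differences that were not called (0.48 and 0.70). When each mouse was centred on its median gene, both of these were called higher in RαTd/Td mice (0.81 and 1.03), and of the 9 only Fpr1 and Fpr2 were called lower in that genotype. Ptafr was also called higher there after quantile normalization (0.72). The median log2 difference of the 9 was -0.87 and -0.63 in the 2 genotypes, against -0.18 and -0.23 over all genes tested, and both medians are the same with Fpr1 and Fpr2 at their limits.

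C5ar1, the receptor of the complement fragment C5a, in Rα+/+ mice was 1372 and 1069 after PBS and 345, 228 and 254 after IL-4c, a difference of -2.15 (SE 0.38, adjusted p = 0.00134 from limma). In RαTd/Td mice C5ar1 was 953 and 961 after PBS and 375, 389, 512 and 1003 after IL-4c, a difference of -0.87 (adjusted p = 0.0681), which was called without mouse 12. Ccr1, a receptor of inflammatory chemokines, changed by -0.76 and -0.41 (adjusted p = 0.000981 and 0.0164). C3ar1, the receptor of C3a, changed by -0.87 and -0.63 (adjusted p = 0.0122 and 0.0370). The falls of C3ar1 and Ccr1 in RαTd/Td mice were not called when each mouse was centred on its median gene, and neither was that of Cxcr4. The C3ar1 call there was also lost when any of 7 mice was left out, and that of Ccr1 without mouse 3 or 4.

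Cxcr4, the receptor of Cxcl12, had fitted differences of opposite sign after IL-4c in the 2 genotypes. In PBS-treated Rα+/+ mice it was at the floor in mouse 1, whose smallest measurable value was 48.2, and 36.8 in mouse 2. It was 103 and 113 in PBS-treated RαTd/Td, 48.1, 64.3 and 56.8 in IL-4c-treated Rα+/+ and 72.4, 74.4, 65.8 and 86.1 in IL-4c-treated RαTd/Td mice. The rise in Rα+/+ mice was 0.74 (adjusted p = 0.00430, not called with 1 floor for all mice), the fall in RαTd/Td mice was -0.53 (adjusted p = 0.0157) and the difference between them was -1.27 (SE 0.22, adjusted p = 0.0193 from limma). The fall was not called after centring on the median gene, after quantile normalization or without mouse 4. After PBS, Cxcr4 was higher by 1.67 in RαTd/Td mice (adjusted p = 0.000579 from limma), while Fpr1 was lower. That Cxcr4 call was lost with only the groups compared. The sizes of 0.74, -1.27 and 1.67 depend on the floor in mouse 1.

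**Figure D4:**
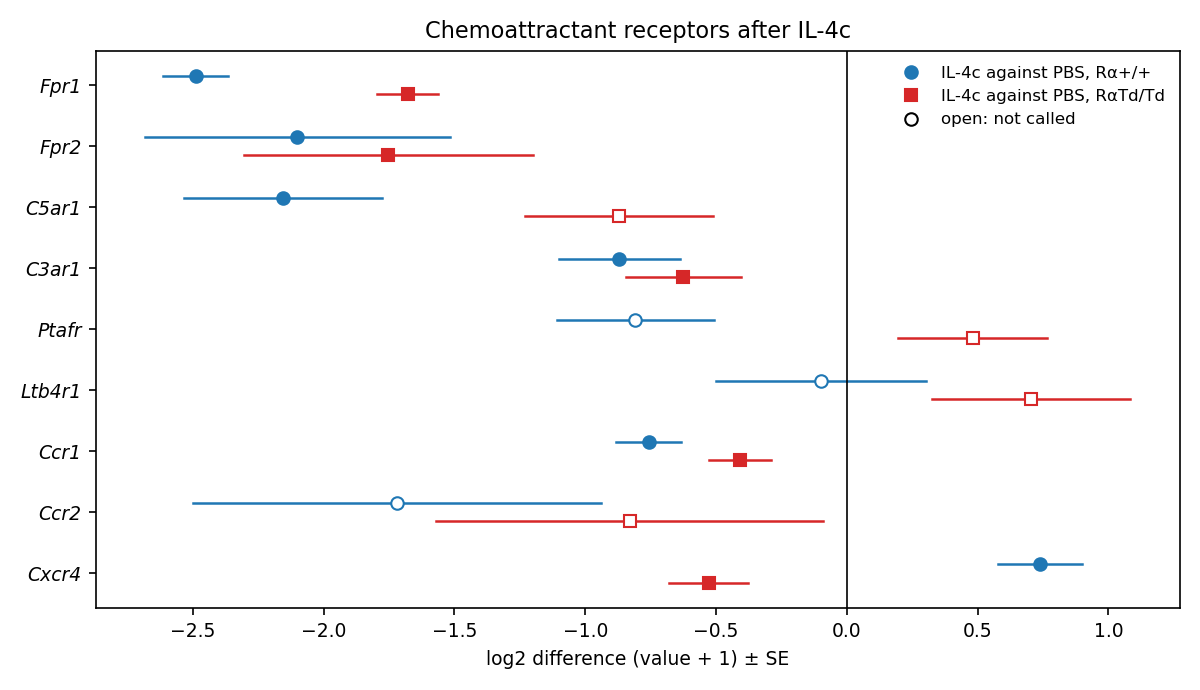
Log2 differences (horizontal axis, ± SE) of 9 chemoattractant receptors after IL-4c, in Rα+/+ mice (circles) and RαTd/Td mice (squares). Filled symbols were called at an adjusted p of 0.05 or less; Fpr1 and Fpr2 lie farthest to the left in RαTd/Td mice, and Cxcr4 lies on opposite sides of 0.

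Downstream of these receptors, 6 of the 31 listed signalling genes reported here were in the table and tested. In Rα+/+ mice 5 fell after IL-4c (Gnai3, Vav1, Mapk14, Rgs1 and Cybb), and in RαTd/Td mice the same 5 fell. The other, Pik3cg, was not called in either. The medians of the 6 were -0.55 and -0.52, against -0.18 and -0.23 over all genes tested, of which 32.4% and 36.6% were called lower. Rgs1, which switches off G proteins, was 289 and 200 after PBS and 90.5, 78.9 and 66.1 after IL-4c in Rα+/+ mice, a difference of -1.62 (SE 0.20, adjusted p = 0.000168 from limma). In RαTd/Td mice it was 344 and 359 after PBS and 134, 137, 183 and 157 after IL-4c, a difference of -1.20 (SE 0.19, adjusted p = 0.000647). After IL-4c Rgs1 was higher in RαTd/Td mice by 0.95 (SE 0.17, adjusted p = 0.0176), a call lost without mouse 6, 7, 11 or 12, with no filter, with centring on the median gene (0.67) and with only the groups compared. Gnai3, an inhibitory G protein subunit of the class that Fpr1 signals through, changed by -0.33 and -0.39 (adjusted p = 0.0256 and 0.00879), and neither fall was called after centring on the median gene or quantile normalization, which also held for Mapk14 in both genotypes. Centring left 3 of the 6 called lower in Rα+/+ mice and 2 in RαTd/Td mice (Rgs1 and Vav1).

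Annexin A1 is a glucocorticoid-induced protein, and 3 of 12 listed glucocorticoid-responsive genes were tested. Dusp1, a phosphatase of MAP kinases, was 9998 and 6455 after PBS and 1877, 1407 and 1278 after IL-4c in Rα+/+ mice, and changed by -2.42 in Rα+/+ and by -2.19 in RαTd/Td mice (adjusted p = 3.46e-05 and 4.45e-05 from limma). Mertk, a receptor for apoptotic cells, changed by -1.08 and -0.93 (adjusted p = 0.00128 and 0.00191). Cd163 was not called in either (-2.02 and 1.08, adjusted p = 0.0827 and 0.3003). Of all genes tested, 32.4% in Rα+/+ and 36.6% in RαTd/Td mice were called lower, with Dusp1 and Mertk among them in both. Anxa1 rose in RαTd/Td mice, and the part of glucocorticoids in these values was not tested.

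Lipid mediators also drive and resolve inflammation, and of the enzymes and proteins that make them 6 of 14 listed were tested. The medians of the 6 were near those of all genes tested, at -0.11 and -0.21 against -0.18 and -0.23. Called lower were 2 of the 6 in Rα+/+ and 3 in RαTd/Td mice, against 32.4% and 36.6% of all genes tested. Alox5ap, the partner protein of 5-lipoxygenase, changed by -0.94 and -0.67 in the 2 genotypes (adjusted p = 0.000136 and 0.000672), and Alox15 changed by -0.99 and -1.02 (adjusted p = 0.0292 and 0.0191). In RαTd/Td mice Ptgs1, a cyclooxygenase, changed by -0.51 and Lta4h, which makes leukotriene B4, rose by 0.49 (adjusted p = 0.0212 and 0.00514). Alox5 itself was 714 to 969 normalised counts in all 11 mice and was not called in the 5 comparisons. It was called higher after IL-4c in RαTd/Td mice when centred on the median gene (0.56) and after quantile normalization (0.52). Neither fall of Alox15, nor that of Ptgs1, was called after centring on the median gene.

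Genes for the uptake of apoptotic cells, a process that annexin A1 favours, were mostly lower after IL-4c. Of 18 listed, 11 were tested, and in Rα+/+ mice 9 fell (Mertk, Timd4, Cd36, Stab1, C1qa, C1qb, C1qc, Fcgr3 and Rab20) and 1 rose (Fcgr2b, the inhibitory Fc receptor, by 1.30). In RαTd/Td mice 7 fell, without Stab1 and Rab20, and Fcgr2b rose by 1.49. The medians were -1.10 and -0.75, against -0.18 and -0.23 over all genes tested, of which 32.4% and 36.6% were called lower, and the falls of C1qb and Fcgr3 in RαTd/Td mice were not called after centring on the median gene. After IL-4c, Mertk and Rab20 were higher in RαTd/Td than in Rα+/+ mice, by 0.78 and 0.72 (adjusted p = 0.0421 for both from limma). Both calls were lost with no filter, when each mouse was centred on its median gene and after quantile normalization. They were also lost with 1 floor for all mice and with only the groups compared, and that of Rab20 with trend and robust moderation. Leaving out any of 9 of the 11 mice lost the Mertk call, and any of 10 the Rab20 call.

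Neutrophils also express Fpr1 and Fpr2, and markers of other cells were read beside them. Of 10 neutrophil markers in the table, 6 (Ly6g, Mpo, Elane, Camp, Cxcr2 and Mmp8) were at the floor in all 11 mice. The others, S100a8, S100a9, Csf3r and Mmp9, were above it in at least 1 mouse. With genes at the floor counted as 30, the summed level of the list was 631 to 870 in PBS-treated mice, 300.0 to 328 in IL-4c-treated Rα+/+ mice and 328 to 391 in IL-4c-treated RαTd/Td mice. Most of the change was in Csf3r, the receptor of a growth factor for granulocytes, which was 251 to 555 in PBS-treated and 30 to 115 in IL-4c-treated mice. Mmp9 was 51.5 and 87.0 in PBS-treated Rα+/+ mice and at the floor in the other 9 mice. S100a8 was 70.75 and 82.49 in PBS-treated Rα+/+ mice, 74.75 in mouse 3 and at the floor in mouse 4. After IL-4c it was above the floor only in mouse 11 (35.57) and mouse 12 (47.05). S100a8, Csf3r and Mmp9 were called lower after IL-4c in Rα+/+ mice and Csf3r in RαTd/Td mice, as were 32.4% and 36.6% of all genes tested. The 5 eosinophil markers in the table other than Alox15 and the T and NK cell gene Gzma were at the floor everywhere. Ms4a1, the single B cell gene, was 105 to 242 in PBS-treated mice and at the floor in 6 of the 7 IL-4c-treated mice. Of 5 mast cell genes, Cpa3 was above the floor in mouse 1 and the others were at the floor everywhere. Markers of macrophage subsets moved as well. Of the large peritoneal macrophage genes, Timd4, Selp and Alox15 fell (Timd4 -1.48 and -1.61, Selp -1.01 and -0.99 in Rα+/+ and RαTd/Td mice) and Gata6, the transcription factor of these cells, was 503 to 712 normalised counts in all 11 mice and was not called. The summed level of that list was 15076 to 19373 in PBS-treated and 5959 to 10544 in IL-4c-treated mice. Of the small peritoneal macrophage genes, Fn1 fell (-1.53 and -1.08) and Irf4 rose in Rα+/+ mice (0.55, adjusted p = 0.0277 from limma). Ccr2 was not called in either genotype (-1.72 and -0.83, adjusted p = 0.0965 and 0.385 from limma), and Itgax was at the floor in every mouse. The summed level of that list was 50823 to 65454 in PBS-treated and 18724 to 34794 in IL-4c-treated mice, nearly all of it Fn1. The summed level of the monocyte list was 706 to 997 in PBS-treated and 44796 to 91886 in IL-4c-treated mice, nearly all of it Chil3, which is also an IL-4-induced macrophage gene. Ms4a1, the neutrophil sum, Timd4, Selp, Alox15 and Fn1 were thus low in the same mice as Fpr1, Gata6 was not and Chil3 was high in them, and their part in the fall of Fpr1 was not tested.

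The tested genes whose profile over the 11 mice was most like that of Anxa1 were Ctsd, Ptger2, Col1a2, Crip1 and Col3a1, with root-mean-square differences of 0.11 to 0.21 in centred log2 values, against a median of 0.47 over the other tested genes. Ctsd, the lysosomal protease cathepsin D, was 9292 to 11336 normalised counts in the 7 mice of the other 3 groups while IL-4c-treated RαTd/Td mice had 12193, 12042, 15075 and 17079. Ctsd was chosen for its likeness to Anxa1, so this separation is no separate result. Its rise after IL-4c in RαTd/Td mice was called (0.44, adjusted p = 0.0386 from limma). Its differences between genotypes after IL-4c (0.47, adjusted p = 0.102) and in the response (0.51, adjusted p = 0.324) were not. Crip1, a LIM domain protein, was highest in mouse 12 at 21709. Ptger2, Col1a2 and Col3a1 were at the floor in 7, 10 and 10 of the 11 mice, so that their likeness comes from a small spread and from mouse 12.

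For Fpr1 the nearest profiles were those of Irf8, Cxcl14, S1pr1, Nfkbiz and Pf4, with differences of 0.30 to 0.40 against a median of 1.00. Irf8, a transcription factor of monocytes and dendritic cells, was 125 and 101 in PBS-treated Rα+/+ mice, 87.8 and 122 in PBS-treated RαTd/Td mice and at the floor in all 7 IL-4c-treated mice. Unlike Fpr1, Irf8 had no called difference between genotypes after PBS (-0.12, adjusted p = 0.734 from limma). Pf4, a platelet and macrophage chemokine, was 6157 and 7919 in PBS-treated Rα+/+, 4089 and 3162 in PBS-treated RαTd/Td and 1118 to 2834 in IL-4c-treated mice. It changed by -2.36 and -1.11 after IL-4c (adjusted p = 0.000578 and 0.0207), and its difference after PBS was -0.96 (adjusted p = 0.173).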

How the data were processed

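Anxa1 and Fpr1, the gene lists and the marker lists were chosen with earlier results of these data known. Lysates of sorted CD11b+F4/80+ cells were read by the authors on a Nanostring panel (Myeloid Innate Immunity v2), and counts were scaled to Eef1g, Gusb, Oaz1 and Rpl19. The deposited signal is linear, with low values set to 30. The version of their software is not given in the sources used here. Each column is 1 mouse, 11 in all. The study removed another Rα+/+ mouse given IL-4c, not analysed here. The mice came from 1 Nanostring experiment.

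All values between the floor and 1000 were whole multiples of 1 factor per mouse (0.750 to 1.88), within 0.1 counts. Division by it gave the counts behind the 95% Poisson intervals. The floor was the higher of 30 counts and 30 normalized counts, and limits on folds use a group's geometric mean of the smallest measurable values. After adding 1 and taking log2, values were fitted by limma 3.58.1 in R 4.3.3 over the 445 genes with a mean above 30, with 1 coefficient for each of the 4 groups and Benjamini-Hochberg adjustment within each of 5 comparisons. Adjusted p-values at or under 0.05 were called. The fit was tested on simulated data.

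Named genes are Anxa1 and Fpr1, the measured genes of 6 pathway lists and 9 marker lists, and the 5 tested genes of most similar profile for each. Some listed genes are not reported here, and counts and medians over lists leave them out. Promoter letters come from RefSeq (GRCm38.p6); gene order comes from RefSeq. The alternatives were no filter, a mean above 100, quantile normalization, centring on the median gene, adding 10 instead of 1, 1 floor of 56.3 for all mice, only the groups compared, trend and robust moderation, the methods' t-test with and without adjustment, and each mouse left out. Applying them to the lists was chosen after seeing the data.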

Additional observations from a re-analysis of the deposited data

Results flagged for a closer look

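Within the 4 IL-4c-treated RαTd/Td mice, the gap between the most extreme mouse and its neighbour was set against the range of the group for 39 genes; chance alone marks about 1 in 20, and 6 were marked above the critical ratio of Dixon's test. The genes share their 4 mice, so the marks are not independent of each other. For Fpr1 the ratio of 1 was fixed by the floor and is no sign of an outlier. With 3 mice set to 30, any higher value in mouse 11, here 35.6, gives 1. For S100a10 it was 0.965, with mouse 12 at 5015 and the others at 3166 to 3231 normalised counts. For Gnai3 it was 0.918, with mouse 9 at 1169 and the others at 991 to 1005. For Rab20 it was 0.913, with mouse 11 at 127 and the others at 94.3 to 97.1. For Cybb it was 0.87, with mouse 11 at 4322 and the others at 3168 to 3319. For Lta4h it was 0.851, with mouse 11 at 229 and the others at 272 to 280.0.

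The fitted difference between the genotypes in the IL-4c response was called by limma for 2 of the 39 genes, Fpr1 and Cxcr4, and for 2.02% of all 445 genes tested. For Fpr1 it was 0.811 on the log2 scale. With both IL-4c-treated groups at or near the floor it carries the difference between the PBS-treated groups and is not a measured difference in the size of the fall. It was not called when centred on the median gene, with trend and robust moderation, or without mouse 2, 4, 5, 6, 7, 9 or 10. For Cxcr4 it was -1.27, from fitted values that rose in Rα+/+ mice and fell in RαTd/Td mice, with mouse 1 at the floor. It was not called with 1 floor for all mice or without mouse 4, 6 or 7.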

How the results depend on the processing

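Both falls of Fpr1 after IL-4c kept their direction and call under 9 alternatives each (-2.49 to -1.60 in Rα+/+ and -1.68 to -0.85 in RαTd/Td mice) and with each mouse left out (-2.51 to -2.47 and -1.83 to -1.53). Fpr1, with a mean of 69.8, was not tested under the filter at a mean above 100. Anxa1 after IL-4c in Rα+/+ mice changed sign when centred on the median gene (0.059) and after quantile normalization (0.042), and lay between -0.27 and -0.17 with each mouse left out. In RαTd/Td mice its rise of 0.59 was not called with only the groups compared (0.59, adjusted p = 0.0823) or by the methods' t-test, adjusted or not, was 0.92 when centred or quantile-normalized, and lay between 0.44 and 0.67 with each mouse left out. The methods' t-test without adjustment gave the Anxa1 differences between genotypes, -0.26 after PBS and 0.55 after IL-4c, an unadjusted p under its threshold; with each mouse left out these were -0.28 to -0.24 and 0.40 to 0.64, and the difference in response was 0.66 to 0.90. The Fpr1 difference of -0.75 after PBS was not called with only the groups compared or by the methods' t-test after adjustment, and was -0.90 to -0.60 with each mouse left out. After IL-4c it was -0.22 when centred, and 0.00 to 0.08 with each mouse left out. The Fpr1 difference in response was not called when centred (0.86) or with trend and robust moderation (0.81), and was 0.66 to 0.96 with each mouse left out.

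Of 445 genes, 206 and 231 were called for IL-4c in Rα+/+ and RαTd/Td mice (148 to 216 and 177 to 243 under the alternatives), 62 higher and 144 lower, and 68 higher and 163 lower. Scaling moved this split to 110 and 103 in Rα+/+ and 140 and 103 in RαTd/Td mice when centred, and to 104 and 107, and 89 and 109, after quantile normalization. Genes called for genotype after PBS numbered 43, against 18 with no filter, 23 when centred, 23 after quantile normalization, 3 with only the groups compared, 2 by the adjusted t-test and 3 to 73 with each mouse left out. After IL-4c they numbered 12, against 5 with no filter, 7 above a mean of 100, 4 with 1 floor, 2 with only the groups compared, 2 by the adjusted t-test, 73 by the unadjusted t-test and 5 to 27 with each mouse left out. For the difference in response they numbered 9, against 4 above a mean of 100, 18 after quantile normalization and 3 to 34 with each mouse left out. Of the pathway genes called for IL-4c, 16 of 24 in Rα+/+ and 12 of 28 in RαTd/Td mice stayed called under every alternative other than the t-test.

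No paired analysis was possible because the mouse numbers are not shared between groups. The 2 mice of each PBS-treated group and the floor limit what can be told apart.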
